A study of Mus musculus with 36 samples.

Results

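The Fn1 locus was examined as the 159 accessible regions that overlap chromosome 1 from 71600000 to 71760000 (mouse build mm9), out of 1393120 regions in the table. The locus was picked because earlier results on the same libraries had shown it lower in reprogrammed cells than in fibroblasts, so its levels against fibroblasts are given as a description, with no p-value. Counts of regions past the threshold of that comparison are given once, beside the same share over all regions. Fn1 (NCBI gene 14268) lies at about 71632100 to 71699700 with its promoter at the high end, so the gene reads towards lower coordinates. Of the 159 regions, 61 passed the filter on low counts that the fit across all regions required, and 98 did not.

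Fn1 encodes fibronectin, a large glycoprotein that cells secrete and assemble into fibrils of the extracellular matrix. Cells hold on to these fibrils through integrins, and collagen and growth-factor complexes also bind to them. In the heart, fibroblasts are a main source of fibronectin, cardiomyocytes make little of it, and TGF-beta signalling is known to raise its transcription. Chromatin over the body of a strongly transcribed gene can itself become open to transposase, apart from the promoter.

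The assay was ATAC-seq: a transposase inserts sequencing adapters where chromatin is open, so reads pile up at accessible DNA. The cells came from neonatal hearts of Cd-1 mice that carry an alpha-MHC-GFP reporter, and all groups began as Thy1-positive, GFP-negative explant cells that were mostly fibroblasts. The 5 GMT groups of 3 libraries each received retroviruses for Gata4, Mef2c and Tbx5 (GMT) together with sb431542, which blocks TGF-beta receptors, and xav939, which blocks Wnt signalling. They were sorted for GFP, hence for cells with an active cardiac myosin promoter, at days 2, 3, 7, 14 and 21. The control group of 3 libraries received a dsRed retrovirus and no inhibitor and was sorted for dsRed at day 7. A difference from this control therefore joins the factors, the inhibitors, the sort and, except at day 7, the time in culture, and these cannot be told apart. In sorted populations, fewer cells of an accessible kind and less accessibility per cell cannot be told apart either. Cell type marker loci were not analysed here, since no mm9 annotation was used.

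Library totals ran from 2.29 to 23.2 M counts, and the locus held 527 to 5646 counts per library. Levels are CPM (counts scaled to a common library size) over library sizes scaled by trimmed means of log ratios (TMM), and per-sample values below are in the order of replicates 1, 2 and 3. The replicate 1 libraries of day 2 and day 3 stand apart from the rest, and at this locus they were low at its strongest narrow regions. The labels state separate biological replicates. Fibroblast replicates 1 and 2 resembled each other in their scaling factors, 0.632 and 0.638 against 1.19 for replicate 3. The single region with the most counts in the table held 49.4 and 49.3% of all counts in replicates 1 and 2 and 14.5% in replicate 3. In the GMT libraries it held 4.52 to 35.4%, so library totals overstate the depth left for other regions.

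Across the locus, summed accessibility in GMT cells stood at 38.7% of the fibroblast mean at day 2 and at 29.9% at day 21. All regions together gave 210.2 ± 35.9 CPM at day 2, 201 ± 52.5 at day 3, 203 ± 15.7 at day 7, 176 ± 14.4 at day 14 and 162 ± 15.7 at day 21, against 543 ± 42.5 CPM in fibroblasts (SD, n = 3 each). The lowest fibroblast library stood at 515 CPM and the highest of the 15 GMT libraries at 254 CPM, so the groups did not overlap.

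The difference was uneven along the locus. Regions were placed in 4 stretches: the gene start (within 1 kb of it), the gene body, the sequence upstream of the start, and the sequence beyond the gene's end. The gene body held 62 regions that cover 54.7 kb of its 67.6 kb, and 45 of them passed the filter. Per kb of region, the gene body stood at 1.56 ± 0.166 CPM at day 2, 1.09 ± 0.198 at day 7 and 0.842 ± 0.00387 at day 21, against 6.37 ± 0.716 CPM in fibroblasts (SD, n = 3 each). The gene start stood at 11.2 ± 4.49, 16.6 ± 1.48 and 12.2 ± 1.90 CPM per kb at these days, against 15.04 ± 1.55 CPM per kb in fibroblasts. The gene body was thus lower in GMT cells at each of these days, while the ranges of the gene start overlapped.

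**Figure D1:**
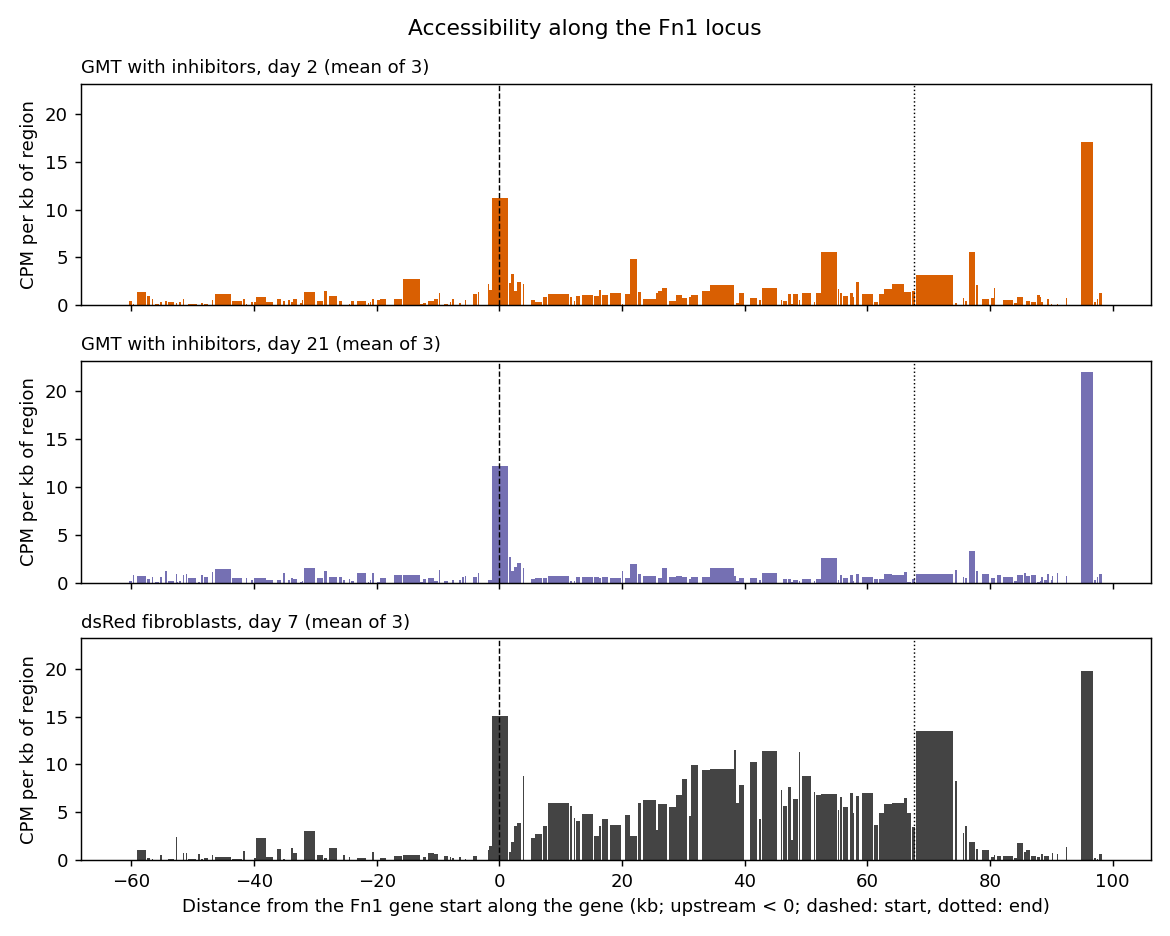
Mean accessibility of every region (bar height, CPM per kb; bar width, the region's width) by distance from the Fn1 start in kb, for GMT cells at days 2 and 21 and for fibroblasts (3 libraries each). The bars between the start and the gene's end average 1.56 and 0.842 CPM per kb in GMT cells at days 2 and 21 and 6.37 CPM per kb in fibroblasts, while the bar at the start stands at 11.2, 12.2 and 15.04 CPM per kb.

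The region over the gene start, at 71698363 to 71700840 (2478 bases), is the only one within 1 kb of it. Its levels were 15.05, 35.4 and 33.0 CPM at day 2, 12.9, 39.4 and 34.5 at day 3, 39.1, 45.5 and 39.1 at day 7, 37.6, 36.3 and 28.0 at day 14, and 29.5, 26.0 and 35.3 at day 21, against 32.8, 39.3 and 39.6 CPM in fibroblasts. The GMT and fibroblast libraries overlapped at all times, and day 2 and day 3 replicate 1, at 15.05 and 12.9 CPM, were below every other library. The fitted log2 fold change over fibroblasts was -0.40, -0.34, 0.15, -0.12 and -0.29 at days 2, 3, 7, 14 and 21, while library totals in place of TMM gave log2 ratios of means above 0 at days 2, 14 and 21. With those replicate 1 libraries left out, the log2 ratio of means was 0.07 at day 3.

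Summed levels in the gene body were 74.9, 92.2 and 88.2 CPM at day 2, 63.6, 103.8 and 60.1 at day 3, 55.2, 71.7 and 51.3 at day 7, 58.4, 53.0 and 49.2 at day 14, and 46.3, 46.0 and 45.8 at day 21, against 332, 319 and 393 CPM in fibroblasts. Every GMT library lay below every fibroblast library, and the 3 libraries of day 21 were the lowest of all. As a share of the fibroblast mean, the gene body stood at 24.4% at day 2, 21.8% at day 3, 17.1% at day 7, 15.4% at day 14 and 13.2% at day 21. The fall from day 7 to day 21 depended on the scaling, as library totals in place of TMM left these days nearly equal. Day 2 replicate 1, low at the gene start, was the lowest of its group here too, and day 3 replicate 1 lay between the other two.

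**Figure D2:**
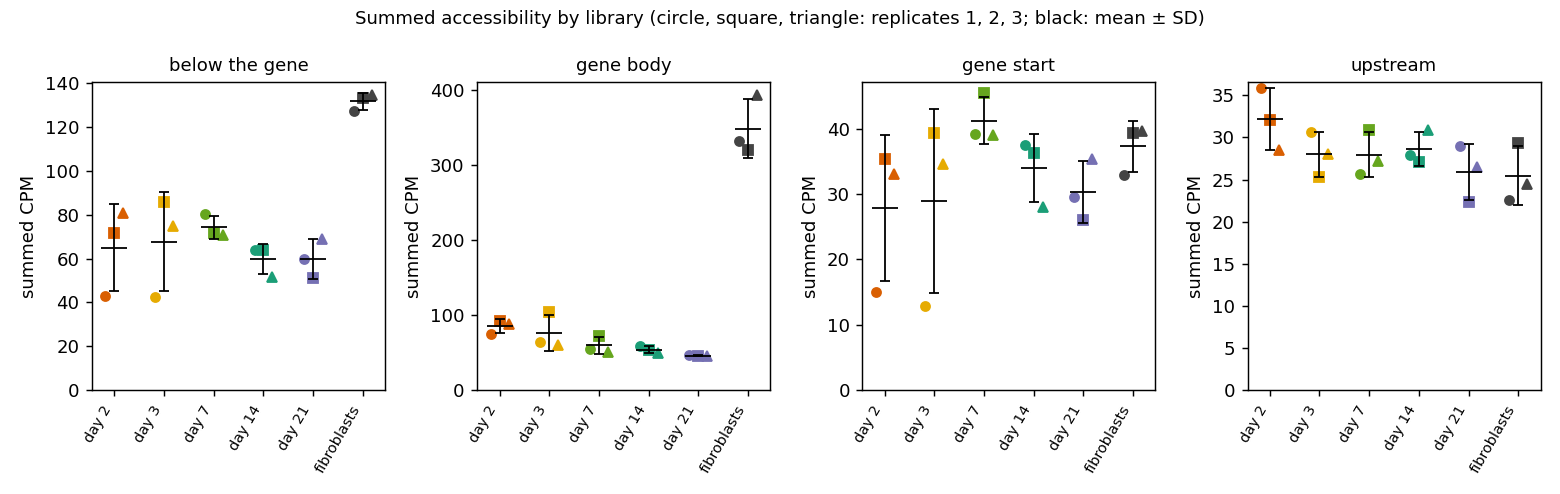
Summed CPM per library in the 4 stretches of the locus, with the 5 GMT groups by day and the fibroblasts at the right (markers, replicates 1 to 3; black, mean and SD). The gene body separates all GMT libraries (45.8 to 103.8 CPM) from the fibroblasts (319 to 393 CPM). The stretch beyond the gene's end does so too (42.5 to 85.9 against 127 to 135 CPM), while the gene start and the upstream stretch do not. Beyond the gene's end, the separation rests on the broad region at 71625818 to 71631841 (4.92 to 27.6 against 75.8 to 86.5 CPM). Without that region, GMT and fibroblast libraries overlap there.

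Set against each other within a library, the gene start held 32.0 ± 10.3% of the gene body's CPM at day 2, 38.6 ± 18.6% at day 3, 70.2 ± 6.43% at day 7, 63.3 ± 5.82% at day 14 and 65.8 ± 10.4% at day 21, against 10.8 ± 1.34% in fibroblasts (SD, n = 3 each). This ratio does not depend on the scaling between libraries. Day 2 gave 20.1, 38.4 and 37.4% and day 3 gave 20.3, 37.9 and 57.4% by replicate, all above the highest fibroblast library at 12.3%. The day 7, 14 and 21 libraries lay from 56.5 to 77.1%, so the lowest of them was just below the highest day 3 library.

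**Figure D3:**
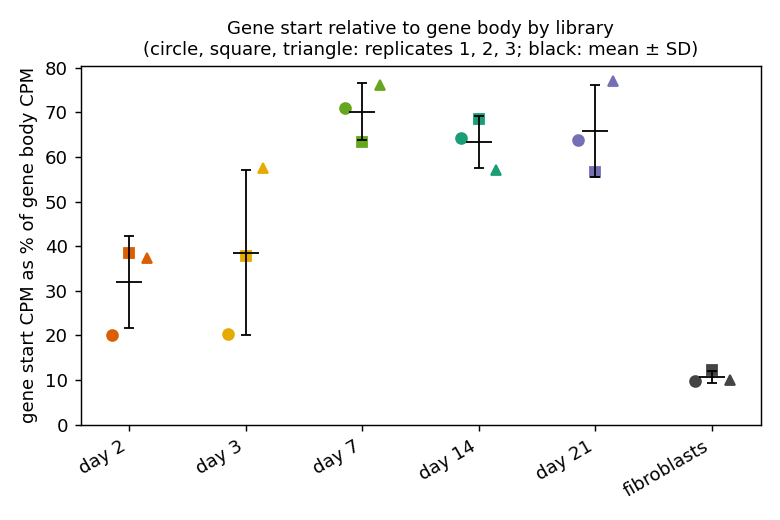
CPM at the Fn1 start as a percentage of the summed CPM of the gene body, by library (markers, replicates 1 to 3; black, mean and SD). Fibroblasts are at 9.88 to 12.3%, days 2 and 3 at 20.1 to 57.4%, and days 7 to 21 at 56.5 to 77.1%.

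At day 2, 41 of the 61 filtered regions were lower than in fibroblasts at an adjusted p under 0.05, where 8.09% of all 144810 filtered regions were. The counts were 43 at day 3 (8.84% of all), 43 at day 7 (12.0%), 44 at day 14 (9.70%) and 44 at day 21 (10.1%). Higher regions numbered 3, 3, 4, 5 and 3 of 61 at these times, where 12.2, 13.2, 15.5, 12.8 and 13.3% of all regions were higher. The medians of the 61 log2 fold changes were -1.77, -2.09, -2.74, -2.71 and -2.95, and those of all regions ran from -0.01 to 0.07. At all 5 times, 39 were lower (4.55% of all regions) and 2 were higher (7.12% of all). Of these 39, 37 lay in the gene body, 1 beyond the gene's end and 1 upstream. The members were chosen on this contrast and a region can pass the filter through fibroblast counts alone, so nothing is read from these counts. The 5 comparisons share their fibroblast libraries.

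Across the gene body, divided into 4 segments of equal length and numbered from the start, the fibroblast signal was highest in segment 3. There it reached 8.97 ± 0.856 CPM per kb (SD, n = 3), against 4.33 ± 0.598, 5.92 ± 0.347 and 6.03 ± 1.58 in segments 1, 2 and 4. GMT cells at day 21 showed little of this profile, at 0.759 ± 0.0394, 0.772 ± 0.144, 0.851 ± 0.0473 and 0.974 ± 0.118 CPM per kb in segments 1 to 4. Segment 3 stood at 15.8% of its fibroblast level at day 2 and 9.49% at day 21. In segment 4, next to the gene's end, these shares were 36.2% at day 2 and 16.1% at day 21.

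Within the gene body, the 2 regions highest in fibroblasts were both lower in every GMT library. The one at 71661428 to 71665378, 36.3 kb from the start and 3951 bases wide, stood at 8.64, 8.85 and 8.15 CPM at day 2 and at 6.46, 6.62 and 5.52 at day 21, against 36.5, 34.0 and 41.8 CPM in fibroblasts. A region at 71654390 to 71656887, 44.1 kb from the start, had 4.16, 4.47 and 4.89 CPM at day 2 and 1.89, 3.54 and 2.40 at day 21, against 27.8, 28.5 and 29.2 CPM in fibroblasts. Neither range overlapped that of fibroblasts at any day. Their log2 fold changes at day 21 were -2.60 and -3.48.

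At day 7, the harvest day that both kinds of cell share, the 5 lowest fitted log2 fold changes of the locus all lay 30.2 to 47.3 kb from the start. The largest of these regions, at 71667380 to 71668440, had 0, 0.685 and 0.497 CPM at day 7, against 9.12, 11.3 and 11.2 CPM in fibroblasts. Its summed counts were 11 at day 7 and 180 in fibroblasts, a scaled ratio of 3.25% (exact 95% binomial interval 1.59 to 5.96%). The region at 71669053 to 71669972 likewise had 11 and 136 counts, a ratio of 4.30% (2.10 to 7.94%). The other 3, at 71652164 to 71652656, 71660596 to 71661062 and 71661067 to 71661363, had 3 counts each at day 7, against 72, 43 and 51 in fibroblasts. Their ratios were 2.22% (0.447 to 6.74%), 3.71% (0.736 to 11.6%) and 3.13% (0.625 to 9.67%). The 5 were picked as the lowest of the comparison that also picked the locus, which favours low ratios, so these values are a description. The intervals pool the 3 libraries of each group and leave out the spread between libraries. They hold counting error alone and may understate it, as reads lacking molecular identifiers can be copies of 1 molecule.

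Of the 45 filtered regions of the gene body, 39 had all 15 GMT libraries below all 3 fibroblast libraries, where 7.11% of all regions did. All 39 were among the 42 that lie at least 4 kb from the start, and none of the 3 within 4 kb did so. This 4 kb cut was not part of the plan. A region that did not pass the filter, at 71695628 to 71695828, lies 3.97 kb from the start, just within it. There too all GMT libraries, at up to 1.03 CPM, were below the fibroblasts, at 1.16 CPM or more. The 3 exceptions at least 4 kb from the start include 2 regions named after their values were seen. One is 71677293 to 71678422, 21.8 kb from the start. It had 6.40, 3.54 and 6.32 CPM at day 2 and 1.34, 1.85 and 3.55 at day 21, against 2.01, 2.78 and 3.96 CPM in fibroblasts. The other is 71641065 to 71641489, 58.4 kb from the start, where day 3 replicate 2 at 2.14 CPM was above fibroblast replicate 2 at 1.62 CPM. The third exception, at 71644633 to 71647212 and 53.8 kb from the start, had 12.8, 15.01 and 15.7 CPM at day 2, 11.6, 15.5 and 8.90 at day 3, 8.45, 12.0 and 10.1 at day 7, 6.74, 6.34 and 8.32 at day 14, and 5.02, 8.31 and 6.96 at day 21, against 16.5, 14.1 and 23.1 CPM in fibroblasts. Its day 2 and day 3 libraries overlapped the fibroblasts, and its day 7, 14 and 21 libraries were below all of them.

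**Figure D4:**
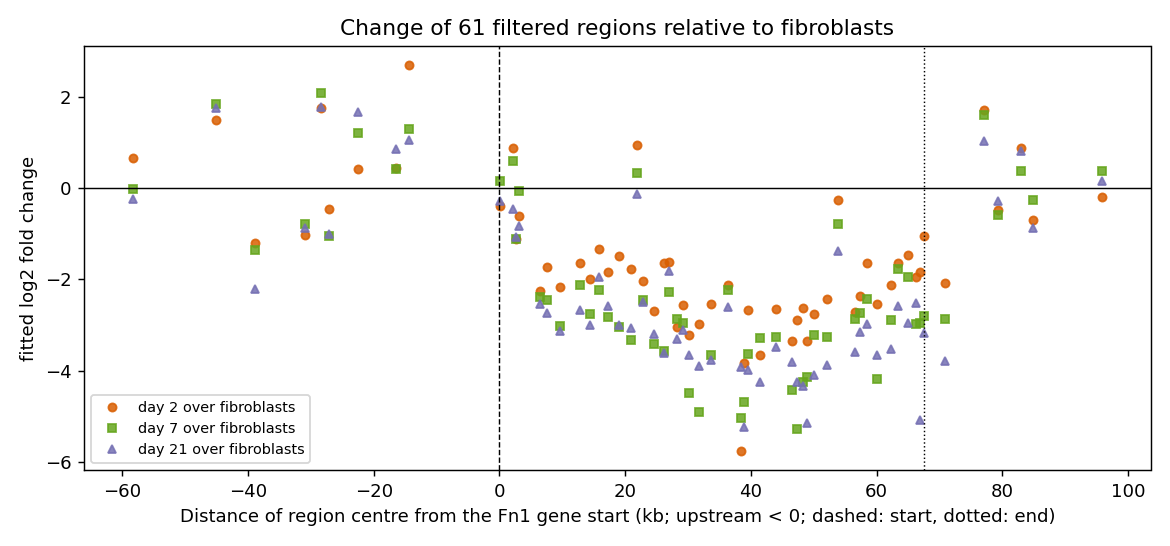
Fitted log2 fold change over fibroblasts of the 61 filtered regions at days 2, 7 and 21 by distance of their centre from the Fn1 start in kb. Points between about 4 kb and the gene's end lie mostly below 0, with the 5 lowest at day 7 lying 30.2 to 47.3 kb from it, while points at the start and upstream lie on both sides of 0.

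Beyond the gene's end lay the strongest region of the locus in fibroblasts, 6024 bases wide at 71625818 to 71631841. It had 19.5, 16.6 and 21.6 CPM at day 2, 10.8, 27.6 and 15.2 at day 3, 9.77, 14.2 and 9.65 at day 7, 5.75, 9.74 and 8.08 at day 14, and 6.24, 4.92 and 6.34 at day 21, against 75.8, 81.2 and 86.5 CPM in fibroblasts. No GMT library came near the fibroblast range, and the day 21 levels were below all those of days 2, 3 and 7. Farther out, the region at 71602893 to 71604815 had 42.4, 35.4 and 49.4 CPM at day 21, against 39.9, 40.9 and 32.8 CPM in fibroblasts, so that the groups overlapped. It was low in day 2 and day 3 replicate 1, at 9.60 and 17.7 CPM, as the gene start was. In RefSeq's GRCm38.p6 annotation the gene beyond the end of Fn1 is Atic, an enzyme of purine synthesis, and the one beyond its start is the long non-coding RNA Apol7d. Regions were not assigned to these genes because that build differs from mm9. Between this region and the broad one, that at 71622144 to 71623151 had a higher mean than in fibroblasts at all 5 times, with 5.66 ± 0.605 CPM at day 2 and 3.39 ± 1.16 at day 21, against 1.87 ± 0.637 CPM in fibroblasts (SD, n = 3 each). A weak region at 71615917 to 71617628 had fitted log2 fold changes above 0 at all 5 times, but its mean was below that of fibroblasts at days 3 and 7. It had 0.487 ± 0.422 CPM at day 3, 0.666 ± 0.281 at day 7 and 0.973 ± 0.370 at day 21, against 0.722 ± 0.952 CPM in fibroblasts.

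Upstream of the start, summed levels overlapped, at 32.2 ± 3.67 CPM at day 2, 28.0 ± 2.65 at day 3, 28.0 ± 2.70 at day 7, 28.6 ± 2.00 at day 14 and 25.9 ± 3.37 at day 21, against 25.5 ± 3.53 CPM in fibroblasts (SD, n = 3 each). Single regions moved in both directions beneath this. At 71743383 to 71746112, 45.0 kb upstream, the levels were 4.80, 2.54 and 2.44 CPM at day 2, 6.86, 3.54 and 5.10 at day 3, 2.57, 3.88 and 5.37 at day 7, 4.83, 2.78 and 3.56 at day 14, and 4.01, 5.23 and 2.30 at day 21, against 1.37, 0.463 and 1.08 CPM in fibroblasts. All 15 GMT libraries were above all 3 fibroblast libraries there, as at 8.71% of all regions, and the log2 fold change ran from 1.48 to 2.20 over the 5 times. At 71737732 to 71739397, 38.9 kb upstream, they were below, with 1.505 ± 0.494 CPM at day 2 and 0.764 ± 0.213 at day 21, against 3.85 ± 0.471 CPM in fibroblasts. The region at 71727758 to 71728359 had 0.758 ± 0.138 CPM at day 21, against 0.168 ± 0.147 CPM in fibroblasts, with all GMT libraries above. That at 71715543 to 71716838 had 1.05 ± 0.536 CPM at day 21, against 0.577 ± 0.132 CPM in fibroblasts.

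The sum of the 98 regions that did not pass the filter was lower too. It was 20.6 ± 6.08 CPM at day 2 and 18.7 ± 2.18 at day 21, against 37.9 ± 3.08 CPM in fibroblasts (SD, n = 3 each). This fall lay in the gene body, as at 71643754 to 71644181, with means of 0.359 CPM at day 21 and 2.83 CPM in fibroblasts. Outside the gene body, such regions did not fall as a set. That at 71741633 to 71743264, upstream, had means of 0.780 CPM at day 21 and 0.138 CPM in fibroblasts. The outermost regions of the stretch examined, at 71601466 to 71601991 and 71759651 to 71760036, held 89 and 15 counts over all 18 libraries, and the nearest outside, at 71598730 to 71598930 and 71760587 to 71760897, held 22 and 20.

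Whether the locus went on changing among GMT cells was tested by contrasts that leave the fibroblasts out. The main one set days 14 and 21 (late) over days 2 and 3 (early), with 6 libraries on either side, in the same edgeR quasi-likelihood fit over all regions. Late cells were lower at 12 of 61 regions (19.7%) and higher at 1, where 3.66 and 2.50% of all regions were. The median log2 fold change of the 61 regions was -0.51, that of all regions 0.03. Of the 12, 8 lay in the gene body, 3 upstream and 1 beyond the gene's end. In the gene body, 42 of 45 filtered regions had a log2 fold change below 0, and 8 of them passed the test. Day 21 over day 2 had an unadjusted p under 0.05 at 26 of 61 regions, where 19053 of all 144810 had one. At an adjusted p under 0.05, it gave 5 lower regions and none higher, where 0.871 and 0.572% of all were. DESeq2 gave 4 lower and 0 higher, and no adjusted p for the region at 71632524. Without single libraries, the lower calls ran from 7 to 17 for late over early and from 2 to 6 for day 21 over day 2, the fewest without libraries of days 2, 3 and 21. Library totals in place of TMM left 5 lower calls for late over early and 3 for day 21 over day 2. With no filter on low counts, 1 and 0 were left, the 1 being the broad region beyond the gene's end.

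The broad region beyond the gene's end fell further, with 5.83 ± 0.789 CPM at day 21 against 19.3 ± 2.49 CPM at day 2 (SD, n = 3 each). The log2 fold change was -1.70 (SE 0.33, adjusted p 0.0015 in edgeR), and late over early gave -1.46 (SE 0.23, adjusted p 1.47e-05). Each day 21 library was below each day 2 library.

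Next to it, segment 4 of the gene body held 5 of the 8 gene body regions called lower in late cells. At 71632524 to 71633209, 66.8 kb from the start, day 21 had 0.223, 0 and 0.0480 CPM, against 1.28, 0.924 and 0.611 CPM at day 2 (edgeR log2 fold change -3.25 with SE 0.82 and adjusted p 0.0242). A single count was worth 0.111, 0.154 and 0.0480 CPM in the day 21 libraries, so those day 21 levels lie near the floor. At 71633769 to 71635620, day 21 had 1.89, 1.69 and 0.912 CPM, against 3.52, 2.85 and 5.91 CPM at day 2 (-1.50, SE 0.39, adjusted p 0.0280). The region at 71644633 to 71647212, whose levels at day 2 overlapped those of fibroblasts, fell by 1.12 on the log2 scale from day 2 to day 21 (SE 0.28, adjusted p 0.0251) and by 0.94 from early to late (SE 0.20, adjusted p 0.00165). Day 21 libraries were all below day 2 libraries in each of these 3. The late over early call of the first was lost without day 3 replicate 2, and the other 2 kept it without any single library. Against day 2, the first lost its call without day 2 replicate 2 or day 21 replicate 2 or 3, the second without day 2 replicate 3 or any day 21 library, and the third without 7 single libraries.

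Upstream, the region at 71712661 to 71715364, 14.3 kb from the start, had its highest level at day 2. Its levels were 6.72, 9.32 and 6.11 CPM at day 2, 3.43, 4.07 and 4.51 at day 3, 3.63, 3.31 and 1.59 at day 7, 2.51, 3.25 and 3.09 at day 14, and 2.12, 1.69 and 3.07 at day 21, against 0.730, 1.85 and 1.44 CPM in fibroblasts. The day 2 libraries were above all others. It fell by 1.65 from day 2 to day 21 (SE 0.32, adjusted p 0.00168 in edgeR) and by 1.08 from early to late (SE 0.23, adjusted p 0.00138). The first of these calls was lost without day 2 replicate 2. The 1 region called higher in late cells, at 71721447 to 71722910 and 22.5 kb upstream, had 1.54 ± 0.851 CPM at day 21 and 1.70 ± 0.452 at day 14, against 0.606 ± 0.184 CPM at day 2 and 0.663 ± 0.299 at day 3 (edgeR log2 fold change 1.30 with SE 0.36 and adjusted p 0.0181). That call was lost without day 2 replicate 3, day 3 replicate 2, day 14 replicate 1 or day 21 replicate 1.

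**Figure D5:**
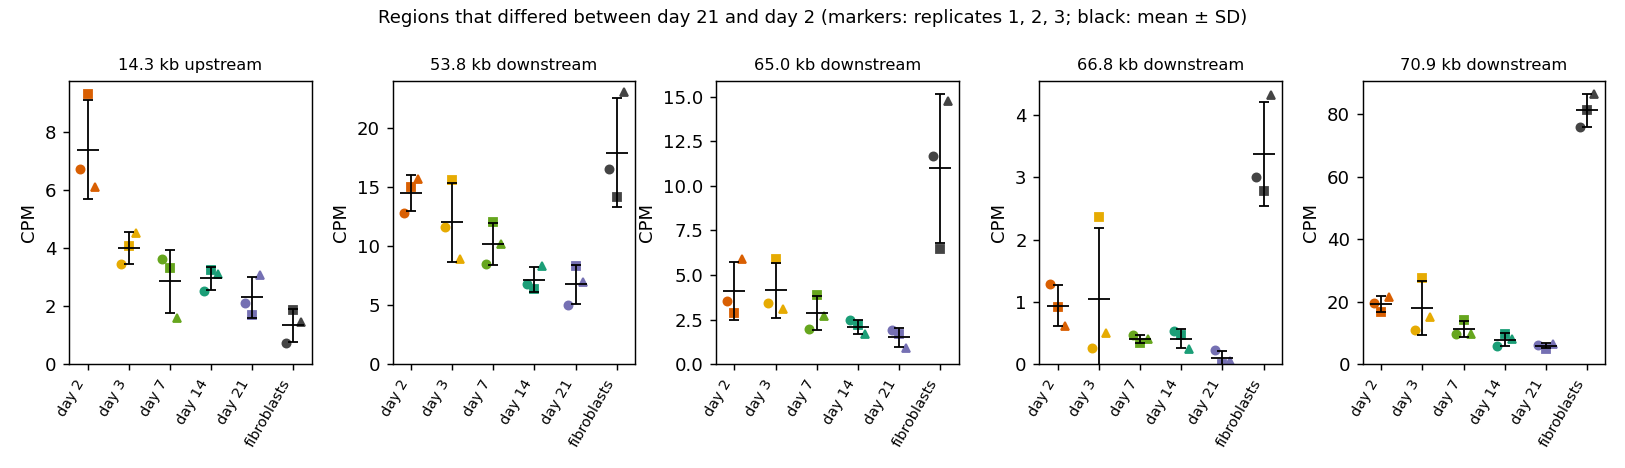
CPM by library of the 5 regions that differed between day 21 and day 2, titled by distance from the Fn1 start (markers, replicates 1 to 3; black, mean and SD). In each, the 3 day 21 libraries lie below the 3 day 2 libraries, and only the region 14.3 kb upstream has its lowest levels in fibroblasts.

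The gene start was not called over the same time, with a log2 fold change of 0.16 from early to late (SE 0.23, adjusted p 0.756 in edgeR) and 0.11 from day 2 to day 21 (SE 0.33, adjusted p 0.933). Its early values include the 2 low replicate 1 libraries. Other regions called lower in late cells had log2 fold changes of -1.02 at 71635670 to 71636962 (adjusted p 0.0341), -1.11 at 71684465 to 71686209 (0.0240), -0.85 at 71688290 to 71691768 (0.0248) and, upstream, -1.07 at 71737732 to 71739397 (0.0280). Each of these 4 calls was lost with library totals, with no filter, and without any of 6 to 7 single libraries of days 2 to 21, and that at 71635670 also in DESeq2. The remaining 3, outside the rule for named regions, had adjusted p of 0.0365, 0.0384 and 0.0461 in edgeR.

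Between consecutive times no region of the locus passed the test in edgeR or in DESeq2. At an unadjusted p under 0.05, edgeR gave 4 of 61 from day 2 to day 3 and 6 from day 3 to day 7. It gave 7 from day 7 to day 14 and 3 from day 14 to day 21. Of all 144810 regions, 5247, 9196, 10373 and 4757 had such a p in these 4 steps. At an adjusted p under 0.05, edgeR called 0.00691% of all regions lower and 0.00138% higher from day 3 to day 7. It called none in the other 3 steps.

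Among 3542 windows of 160 kb with 20 or more filtered regions, those whose summed CPM followed the locus most closely over the 18 libraries were on chromosome 1 at 127520001 to 127680000 and on chromosome 12 at 76320001 to 76480000 and 110720001 to 110880000. Within the 15 GMT libraries alone, Pearson's r with the locus was 0.858, 0.718 and 0.820, given as a description, since the windows share libraries, depth and scaling with it. Their log2 ratios of day 21 over fibroblasts were -0.84, -0.78 and -1.33, against -1.82 for the filtered regions of the Fn1 locus, and the median window was at 0.17.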

How the data were processed

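The deposited table holds counts of reads per region, whole numbers not normalized by the authors, for 18 of the 36 samples in the labels; the other 18 were not analysed here. Per the submitters' processing notes the tools were Bowtie2, Picard, MACS2 and edgeR on build mm9; their versions and settings, any adapter offset and any pooling before peak calling are not stated in the labels. The last line of the table as held is incomplete and was left out. Effective library sizes came from TMM (edgeR 4.0.16, R 4.3.3). filterByExpr (minimum count 10, minimum total 15) kept 144810 regions, which were fitted together by quasi-likelihood, each group having its own mean (12 residual degrees of freedom, biological coefficient of variation 23.8%). Differences were tested two-sided, and Benjamini-Hochberg adjustment ran over all filtered regions. Fold changes are fitted log2 values with edgeR's default shrinkage, and SE is the fold change over the root of F. The fit was tested on simulated counts.

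The members, tests and lists were chosen with earlier results of these data known. Named are the regions within 1 kb of the start, the 5 highest in fibroblasts, the 5 lowest at day 7, the 10 with the smallest p in contrasts among GMT groups, those with a fitted fold change above fibroblasts at all 5 times and those at the edges. Motif, marker and pathway gene analyses were not run, because no mm9 annotation or Fn1 promoter sequence was used here. Alternatives were RLE size factors, library totals, no filter, DESeq2 1.42.0, the replicate number as a block, a threshold of 0.01, leaving out each library, and leaving out the replicate 1 libraries of days 2 and 3.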

Additional observations from a re-analysis of the deposited data

Results flagged for a closer look

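Of the 61 filtered regions, 5 differed between day 21 and day 2 of GMT cells in edgeR's test of that difference, so their distance from the shared fibroblasts differed between the 2 times. The log2 fold changes of day 21 over day 2 were -1.70 at 71625818 to 71631841 beyond the gene's end, -3.25 at 71632524 to 71633209, -1.50 at 71633769 to 71635620 and -1.12 at 71644633 to 71647212 in the gene body, and -1.65 at 71712661 to 71715364 upstream. In the first 4, the later time was the one farther from fibroblasts, and at the upstream region it was the nearer one.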

How the results depend on the processing

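The gene body kept its direction at all 5 times under each of the 21 alternatives in which it was summed. No sums were made with the replicate block, no filter, DESeq2 or the stricter threshold. Its log2 ratio at day 21 stayed between -2.95 and -2.72 when single libraries were left out, but not with library totals. Library totals in place of TMM moved the median of all regions to 0.63, 0.51, 0.30, 0.58 and 0.66 at days 2, 3, 7, 14 and 21 over fibroblasts. With them the locus sum stood at -0.92 at day 2, -1.30 at day 14 and -1.31 at day 21. The gene body stood at -1.58, -2.39 and -2.48 at these days, against -2.03, -2.70 and -2.92 with TMM. Its fall from day 7 to day 21 was not kept, as library totals left these 2 days nearly equal. The gene start, which turned direction, stood at 0.0082, 0.21 and 0.14 at days 2, 14 and 21 with library totals. Higher calls became 5 at day 2 and 5 at day 21, and lower calls 3 for day 21 over day 2 and 5 for late over early. A threshold of 0.01 left 2, 2 and 1 higher calls at days 7, 14 and 21, 2 lower for day 21 over day 2, and 5 lower and 0 higher for late over early. With no filter, lower calls were 24 at day 2, higher calls 1 at day 14 and 1 at day 21, day 21 over day 2 gave 0 lower, and late over early 1 lower and 0 higher, with more regions entering the adjustment. DESeq2 gave 3 and 1 higher calls at days 14 and 21 and 0 for late over early. Without replicate 1 of days 2 and 3, higher calls at day 21 were 5 and the gene start at day 3 stood at 0.071, the other direction. The cause of these shifts was not tested.

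Leaving out single libraries gave 2 to 4, 2 to 5 and 1 to 5 higher calls at days 7, 14 and 21, 2 to 6 lower calls for day 21 over day 2, and 7 to 17 lower and 0 to 1 higher for late over early. Day 21 over day 2 dropped to 2 or 3 without day 2 replicate 2 or 3 or any day 21 library, and late over early to 7 without day 2 replicate 2 or 3, day 3 replicate 2 or day 21 replicate 1 or 2. Locus sums ran from -1.47 to -1.21 at day 7, -1.66 to -1.44 at day 14 and -1.80 to -1.53 at day 21, and the gene start from -0.59 to 0.0011 at day 2, -0.66 to 0.0975 at day 3, 0.06 to 0.35 at day 7 and -0.22 to 0.106 at day 14. Over all groups, replicate numbers did not pair the libraries: same-numbered ones of different groups correlated at a median r of 0.0047, with 2 of 45 pairs over 0.1. Both joined day 2 to day 3, where replicates 1, 2 and 3 correlated at 0.321, 0.214 and 0.0985. Day 2 replicate 2 also correlated with day 3 replicate 3, at 0.220, so a structure shared by these 2 days remains possible. With the replicate block, late over early gave 9 lower calls and day 21 over day 2 gave 5; the calls at 71635670 and 71688290 were among those lost. Depth limits the weaker regions, as 1 count was worth up to 0.360 CPM.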
